A study of Mus musculus with 12 samples.

Results

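The genes described are 35 mitosis genes, a list of cyclins, kinases, checkpoint, kinetochore, spindle and exit genes that was matched by symbol to Ensembl identifiers among the 54146 genes of the count tables. All 35 were found and all 35 passed the filter on low counts. They were measured by RNA sequencing in BMEL cells, a bipotential embryonic mouse liver line of hepatic progenitors, with 3 libraries in each of 4 groups. The groups were Cdk8 -/- cells transformed by H-RasG12V (Cdk8 knockout), Cdk19 -/- cells transformed by H-RasG12V (Cdk19 knockout), wild-type cells transformed by H-RasG12V (RasG12V) and wild-type cells without transformation (untransformed). The line came from a mouse with floxed Cdk8 alleles, and all cells were taken during exponential growth on collagen in medium with serum, insulin, IGFII and EGF. The labels do not say how the knockouts were made or whether a group is 1 clone. Whether the 3 libraries of a group are separate cultures is not stated either, so a p-value here reflects variation among libraries that could be technical only.

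Mitosis is driven by Cdk1 bound to A- and B-type cyclins, and the Aurora and Polo kinases act with it on the spindle and the chromosomes. The spindle checkpoint holds back the anaphase-promoting complex until every kinetochore is attached to microtubules, and cyclin B is then destroyed. Transcripts of these genes accumulate in G2 and M phase in dividing cells, under the control of the DREAM complex, B-Myb and Foxm1, which act largely through promoter elements called CHR (cell cycle genes homology region) together with CCAAT boxes bound by NF-Y. Cdk8 and Cdk19 are paralogous kinases of the Mediator complex, and the study asked what the loss of either does to transcription in Ras-transformed progenitors.

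Levels are CPM, gene counts scaled to a common library total after TMM adjustment, and libraries held between 24823560 and 36879661 gene counts. Hras, whose counts may include reads from the H-RasG12V transgene, averaged 451 ± 6.07 CPM in Cdk8 knockout and 422 ± 18.7 CPM in Cdk19 knockout cells (SD, n = 3 each). It had 510, 537 and 313 CPM in RasG12V replicates 1 to 3 and 57.5, 51.7 and 40.7 CPM in the untransformed ones. Cdk8 had 41.4, 43.8 and 43.3 CPM in Cdk8 knockout, 52.7, 57.1 and 55.2 CPM in Cdk19 knockout, 56.3, 56.4 and 50.9 CPM in RasG12V and 49.6, 45.7 and 43.7 CPM in untransformed cells. Cdk19 averaged 63.9 ± 5.58 CPM in Cdk8 knockout, 49.8 ± 4.22 CPM in Cdk19 knockout, 75.2 ± 16.0 CPM in RasG12V and 87.8 ± 4.16 CPM in untransformed cells (SD, n = 3 each). In RasG12V replicates 1 to 3 Cdk19 had 64.7, 67.2 and 93.6 CPM. Each gene had its lowest mean in its own knockout, where Cdk8 overlapped with untransformed cells. How the knockouts were made is not stated and single exons were not examined, so these whole-gene counts do not check the labels. Over 9 liver progenitor markers the summed level lay between 7014.6 and 9853 CPM in the 12 libraries, with Krt18, Krt19, Krt8, Cd24a and Spp1 the most abundant, while Epcam was at or below 0.211 CPM. The mesothelial list lay between 1091 and 1659 CPM and consisted almost wholly of Msln, with Wt1 at or below 0.104 CPM. The erythroid list stayed at or below 0.242 CPM, the endothelial list at or below 0.669 CPM and the stellate cell and fibroblast list at or below 2.28 CPM in every library. RasG12V replicate 3 stood apart from the other libraries: on the second principal component of log2 CPM, which held 12% of the variance, it lay at -53.2, against -15.8 to 16.0 in the other 11. On the first, which held 60.2% of the variance, it lay at 4.75, between the other 8 transformed libraries (20.1 to 29.8) and the untransformed ones (-77.5 to -58.7). Mitochondrial genes took 1.92% of its counts, more than the 1.18% to 1.54% in the other libraries. Untransformed replicate 3 lay at -15.8 on the second component, against 9.49 and 16.0 in its group, so results are given with all 12 libraries and without both of these replicates 3.

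The mitosis genes were low together in RasG12V replicate 3. For all 35 of them it was the lowest of the 12 libraries, which held for 18.9% of all 14283 genes tested, and it lay below replicates 1 and 2 of its own group for all 35, against 43.7% of all genes. Its level was between 40.5% (Mki67) and 95.1% (Bub3) of the mean of replicates 1 and 2, with a median of 56.9%. The summed level of the 35 genes was 4008 CPM in RasG12V replicate 3, against 6922 and 7056 CPM in replicates 1 and 2. In the other 9 libraries the sum lay between 5758 and 7041 CPM. Fewer cells in mitosis and less RNA of these genes per cell cannot be told apart in such bulk samples. That library also had the highest sum of the 6 macrophage and leukocyte markers, 60.4 CPM against 33.5 to 47.0 CPM in the other 11. Of it 52.5 CPM were Cd14, and Cd68 stood at 6.75 CPM there against 2.97 to 4.59 CPM in the other 11, while Adgre1 was at 0 in all 12 libraries and Ptprc and Csf1r stayed below 1 CPM. Spp1 (osteopontin), on the liver progenitor list, was at 1449.8 CPM in it against 386 and 392 CPM in replicates 1 and 2, and Hras was at 59.7% of their mean. The part of the mitochondrial share, these markers or Hras in the low mitosis genes was not tested.

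**Figure D1:**
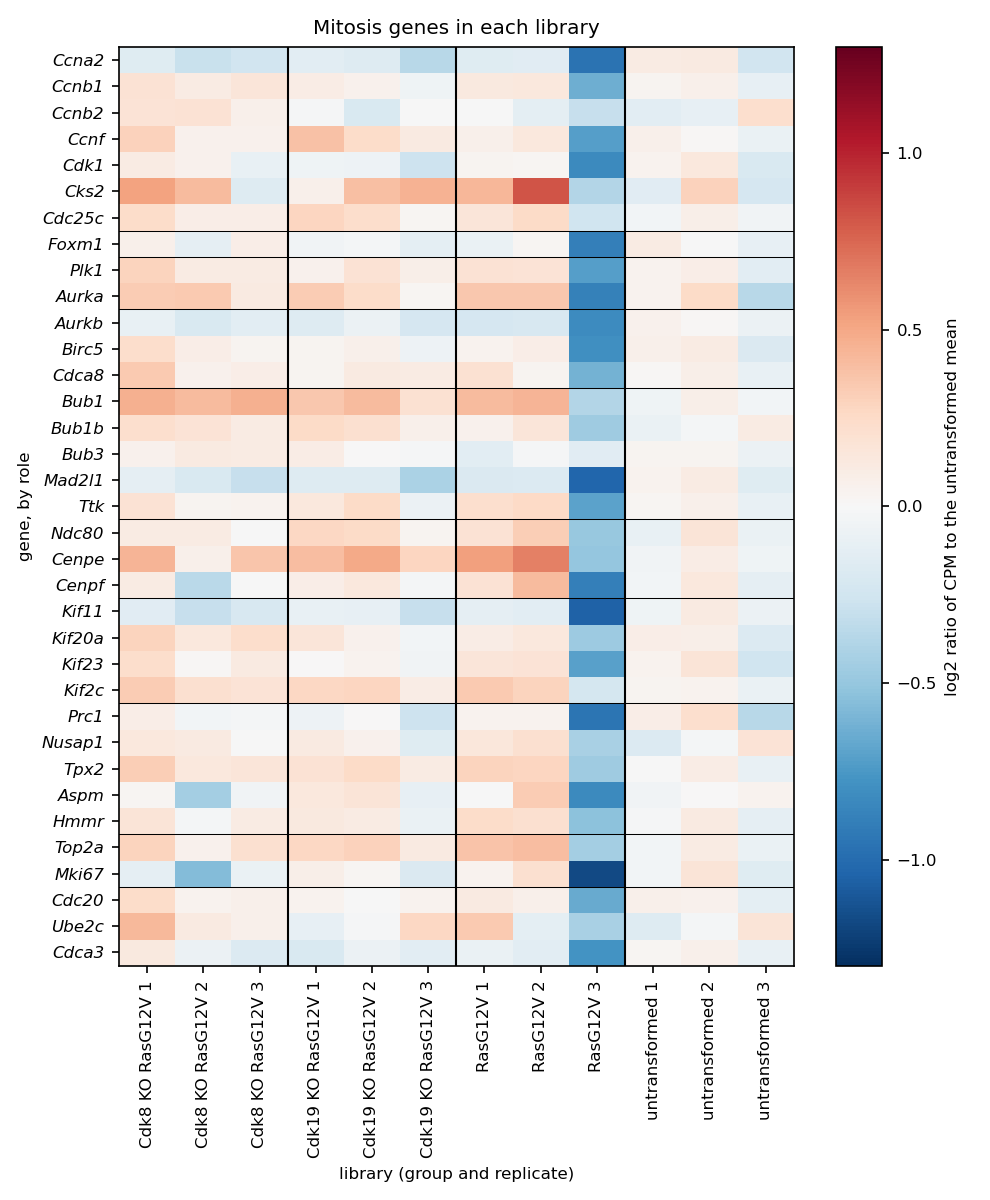
Each row is 1 of the 35 mitosis genes, ordered by role, and each column a library; colour is the log2 ratio of CPM to the mean of the 3 untransformed libraries (red higher, blue lower). The column of RasG12V replicate 3 is blue throughout, while the other RasG12V and knockout columns are mostly pale. In these, Bub1 and Cenpe are red and Ccna2, Mad2l1 and Kif11 blue in every column. The reddest single cell is Cks2 in RasG12V replicate 2, and the bluest in these columns is Mki67 in Cdk8 knockout replicate 2.

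The other replicates varied far less. Leaving RasG12V replicate 3 aside, the highest of the remaining 11 libraries was between 1.18 and 2.06 times the lowest for each gene, with a median of 1.35. The median coefficient of variation of the 35 genes was 6.97% in Cdk8 knockout, 7.55% in Cdk19 knockout, 29.0% in RasG12V and 7.60% in untransformed cells. Over all genes tested the medians in these groups were 7.81%, 7.83%, 15.5% and 11.7%. In RasG12V replicates 1 and 2 alone the median was 2.58% for the 35 genes and 4.78% for all genes. Untransformed replicate 3 was below both other untransformed libraries for 28 of the 35 genes, against 40.6% of all genes, at a median of 90.3% of their mean, and above both for Ccnb2, Bub1b, Nusap1, Aspm and Ube2c. Cdk19 knockout replicate 3 was likewise below both others of its group for 28 of the 35, against 37.7% of all genes, with a median log2 ratio of -0.17 to their mean.

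**Figure D2:**
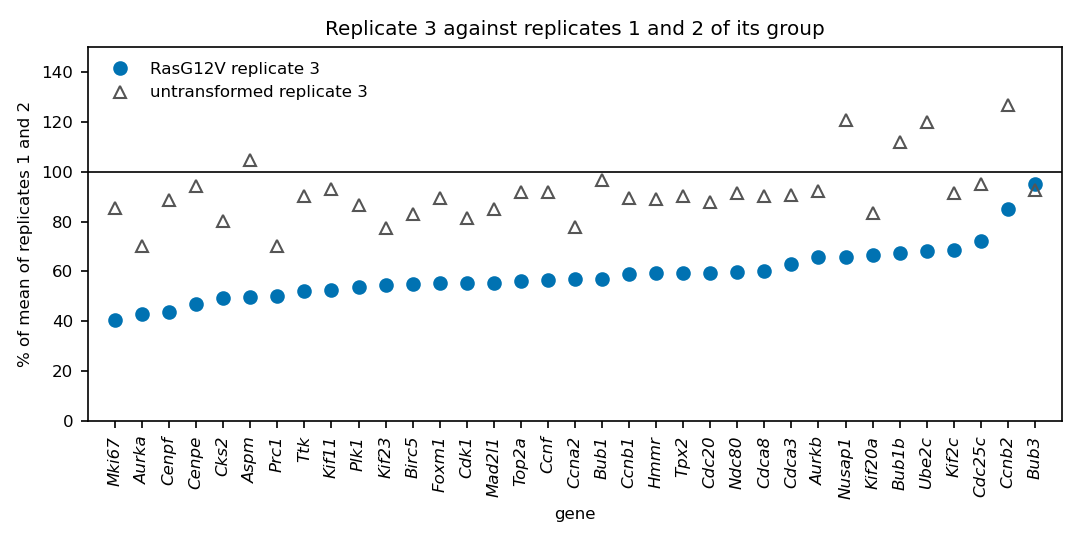
For each gene, the level of replicate 3 as a percentage of the mean of replicates 1 and 2 of the same group, for RasG12V (filled circles) and untransformed cells (open triangles), ordered by the RasG12V value; the line marks 100%. RasG12V values run from 40.5% for Mki67 to 95.1% for Bub3, and untransformed values from 70.1% to 127%.

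Promoters were examined because the genes were low together in that library. Promoter sequence was matched in RefSeq (GRCm38.p6) for 29 of the 35 genes; Ccna2, Cdc25c, Foxm1, Aurkb, Kif20a and Tpx2 were not matched. The 100 bases before the RefSeq start are shown for 4 genes, to set promoters that hold both elements beside one that holds neither. Capitals mark CHR elements (TTTGAA or TTCGAA, with TTCAAA the first one read from the other strand) and CCAAT boxes (CCAAT, or ATTGG from the other strand).
Cdk1 (chr10:69352913-69353012, minus strand): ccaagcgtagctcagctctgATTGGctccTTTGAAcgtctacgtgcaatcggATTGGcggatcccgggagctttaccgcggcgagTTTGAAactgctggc
Top2a (chr11:99024190-99024289, minus strand): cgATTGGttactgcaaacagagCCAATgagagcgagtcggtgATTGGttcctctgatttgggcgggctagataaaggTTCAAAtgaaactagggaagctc
Kif11 (chr19:37376282-37376381, plus strand): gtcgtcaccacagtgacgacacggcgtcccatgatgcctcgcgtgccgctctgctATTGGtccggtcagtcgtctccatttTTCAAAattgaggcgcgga
Mad2l1 (chr6:66535121-66535220, plus strand): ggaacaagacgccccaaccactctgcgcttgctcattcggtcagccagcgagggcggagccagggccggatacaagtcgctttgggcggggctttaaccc

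Cdk1 holds a pair of each element within these bases, Top2a a CHR and 3 CCAAT boxes, and Kif11 1 of each. Mad2l1 holds neither, here or in the whole window from 250 bases before to 50 after the RefSeq start; its GENCODE M21 gene start lies 169 bases downstream of the RefSeq one and 120.0 bases past the end of that window. For 25 of the 29 genes the M21 start lies within the window, and for Cdca3, Cdca8, Kif2c and Mad2l1 it does not. Over that window, 23 of the 29 genes (79.3%) held a CHR on either strand, against 48.9% of 92 other mitosis genes and 21.7% of 27025 genes with a promoter. A CCAAT box stood in 82.8% of the 29, in 55.4% of the other mitosis genes and in 41.1% of all genes. Both elements stood together in 72.4% of the 29, in 30.4% of the other mitosis genes and in 8.61% of all genes. A CHR within 50 bases of the start was held by 72.4% of the 29, 37.0% of the other mitosis genes and 6.12% of all genes. These are letter matches and not binding sites.

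**Figure D3:**
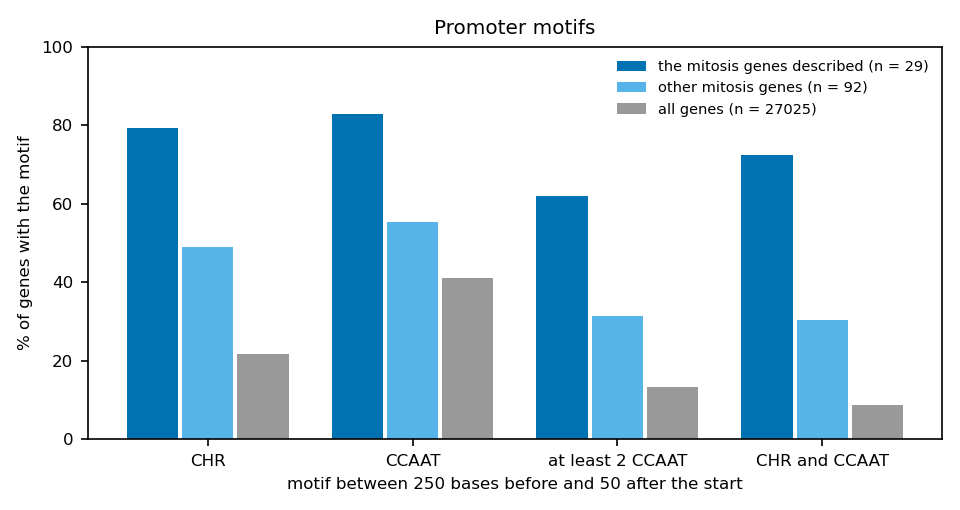
Bars give the percentage of genes whose promoter window holds a CHR, a CCAAT box, at least 2 CCAAT boxes, or both kinds, for the mitosis genes described (n = 29), other mitosis genes (n = 92) and all genes with a promoter (n = 27025). At least 2 CCAAT boxes stood in 62.1% of the first, 31.5% of the second and 13.3% of the third.

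The level in RasG12V replicate 3 overlapped between genes with and without a CHR. The 6 genes without one in the window (Birc5, Ccnb1, Cenpe, Cks2, Mad2l1 and Nusap1) stood at 46.9% to 65.9% of replicates 1 and 2, with a median of 55.1%. The 23 with one stood at 40.5% to 95.1%, with a median of 56.7%.

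Few mitosis genes passed the test between groups. With all 12 libraries, 1 of 35 passed an adjusted p of 0.05 (edgeR quasi-likelihood test, Benjamini-Hochberg over all genes) in RasG12V against untransformed cells, where 23.4% of all genes did. None passed in Cdk8 knockout against untransformed cells or in Cdk19 knockout against untransformed cells, where 24.4% and 25.3% of all genes did. At an unadjusted p under 0.05 the counts in these comparisons were 2, 1 and 0, and DESeq2 called 1, 1 and 0. Shares of all genes are not given for unadjusted p or DESeq2, here or below. The median log2 fold change of the 35 genes was -0.07 in RasG12V, 0.12 in Cdk8 knockout and 0.06 in Cdk19 knockout cells, each against untransformed cells, while the median over all genes was -0.01 in the Cdk8 knockout comparison and nearer to 0 in the others. In all 3, the approximate 95% interval of every one of the 35 fold changes lay within a log2 value of 1, so a 2-fold difference lay outside it. These 3 comparisons share the untransformed libraries and 1 fit of all 12 libraries, RasG12V replicate 3 included. For them no share of all genes with groups free of overlap is given, so separation of single genes is not set against one.

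Without both replicates 3 more genes passed, in both directions. In RasG12V against untransformed cells 6 rose and 3 fell, a called share of 25.7% against 40.0% of all genes. In Cdk8 knockout against untransformed cells 5 rose and 4 fell, 25.7% against 42.2% of all genes. In Cdk19 knockout against untransformed cells 3 rose and 7 fell, 28.6% against 43.6% of all genes. The called share of the mitosis genes was thus below that of all genes in each of the 3. With RasG12V replicate 3 alone left out, 8 genes rose in RasG12V against untransformed cells (Bub1, Cenpe, Hmmr, Kif2c, Ndc80, Top2a, Tpx2 and Ttk) and Aurkb fell, where 16.9% of all genes rose and 16.1% fell. In Cdk8 knockout against untransformed cells Bub1, Cenpe, Kif20a, Kif2c and Tpx2 then rose (17.3% of all genes rose and 16.2% fell), and in Cdk19 knockout against untransformed cells Bub1, Ccnf, Cenpe, Kif2c, Top2a and Tpx2 rose while Mad2l1 fell (17.9% of all genes rose and 17.0% fell). With untransformed replicate 3 alone left out, 0 of 35 passed in each of the 3. Several calls made without both replicates 3 were thus absent when either was left out alone. In RasG12V cells these were Ccna2, Mad2l1 and Nusap1. In Cdk8 knockout cells they were Aurkb, Bub1b, Ccna2, Ccnb2, Kif11 and Mad2l1. In Cdk19 knockout cells they were Aurkb, Bub1b, Ccna2, Cdca3, Cdk1, Kif11 and Prc1.

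**Figure D4:**
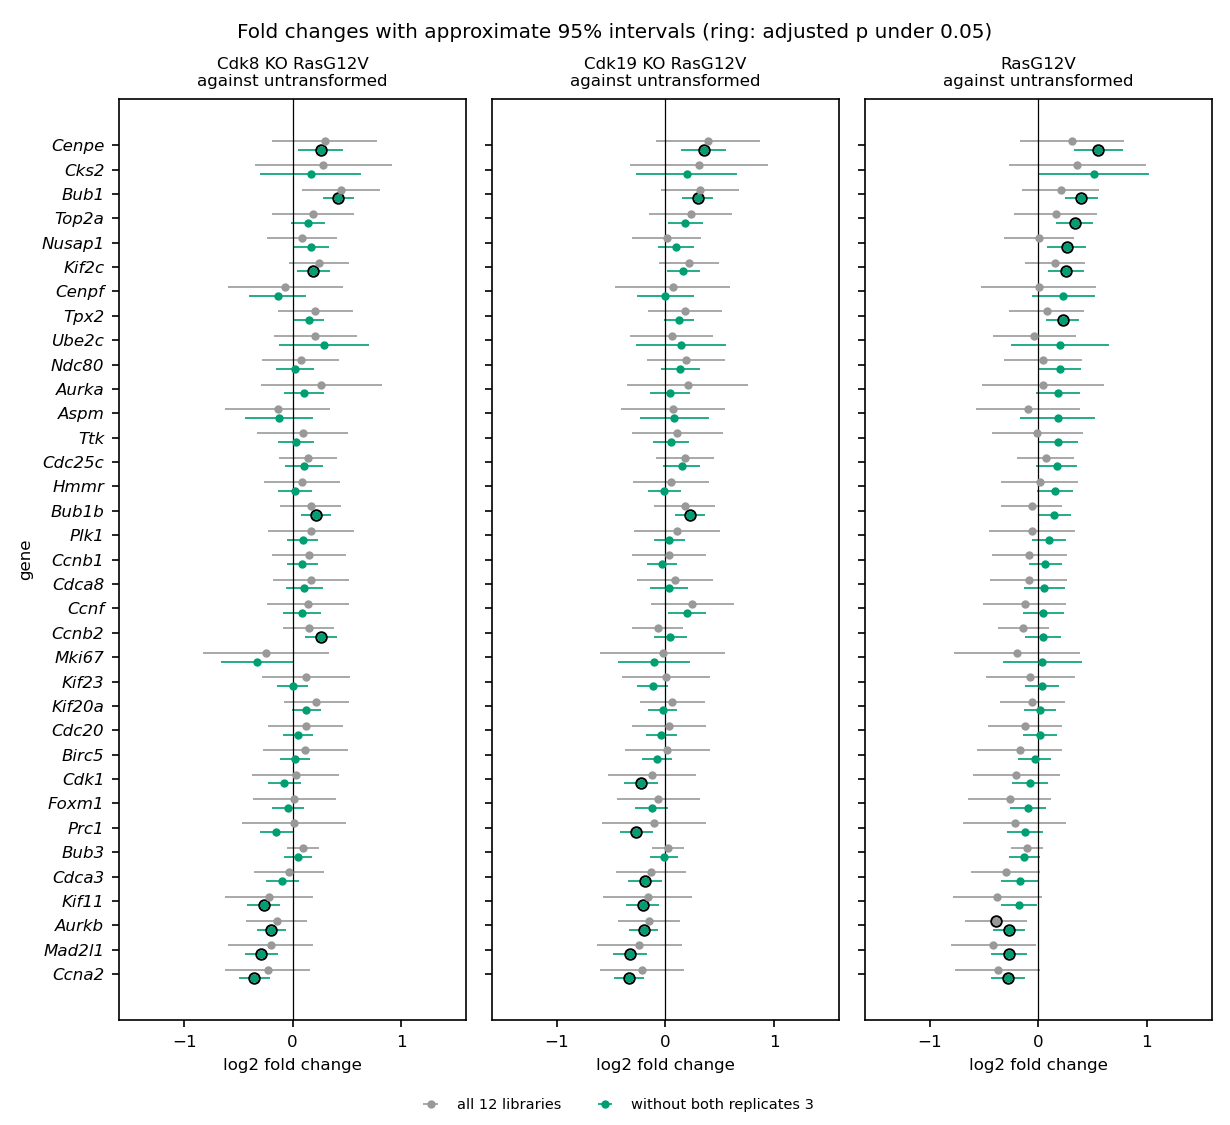
Log2 fold changes of the 35 genes against untransformed cells in Cdk8 knockout, Cdk19 knockout and RasG12V cells, with approximate 95% intervals, from all 12 libraries (grey) and without both replicates 3 (green); black rings mark an adjusted p under 0.05. Cenpe and Bub1 lie to the right and Ccna2, Mad2l1 and Aurkb to the left of no change in each panel, and only Aurkb in RasG12V has a ring on a grey point.

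Against RasG12V cells, neither knockout moved a mitosis gene past the threshold. With all 12 libraries 0 of 35 passed in Cdk8 knockout cells (background 0.0% of all genes) and 0 of 35 in Cdk19 knockout cells (background 0.014%), by edgeR and by DESeq2, with 2 and 0 at an unadjusted p under 0.05 by edgeR. The median log2 fold change was 0.21 for Cdk8 and 0.12 for Cdk19 knockout cells. Without both replicates 3 the signs turned, to -0.03 for Cdk8 and -0.07 for Cdk19 knockout cells, and again 0 of 35 passed, against 1.59% and 2.01% of all genes, with 6 and 3 at an unadjusted p under 0.05. All 35 intervals lay within a log2 value of 1 in both comparisons and both settings. With all libraries, Ccnb2, Aurkb, Bub3 and Kif20a lay above every RasG12V library in all 3 Cdk8 knockout libraries, against 12.5% of all genes whose groups did not overlap. No gene of the 35 was free of overlap in the Cdk19 knockout, against 14.5% of all genes. RasG12V replicate 3 was the lowest library for all 35 genes, so neither knockout could lie wholly below RasG12V for any of them. That held for only 18.9% of all genes, so the shares of all genes are not a like background here. These comparisons share the RasG12V libraries.

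No mitosis gene separated the knockouts at the threshold. In Cdk8 against Cdk19 knockout cells 0 of 35 genes passed (background 0.105% of all genes) by edgeR and by DESeq2, with 0 at an unadjusted p under 0.05 by edgeR and a median log2 fold change of 0.04. The fold changes ran from -0.22 for Mki67 to 0.22 for Ccnb2. The approximate 95% interval lay within a log2 value of 0.5 for 25 of the 35 and within 1 for all of them. Ccnb1, Ccnb2 and Bub1 were higher in every Cdk8 knockout library than in any Cdk19 knockout library, against 20.7% of all genes whose groups did not overlap. Without both replicates 3, 0 of 35 passed, against 5.32% of all genes, with 3 at an unadjusted p under 0.05.

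Among the cyclins and Cdk1 activators, only Ccna2 passed in each comparison with untransformed cells, and this needed both replicates 3 left out. Ccna2 (cyclin A2; ENSMUSG00000027715, GRCm38 chr3:36564865-36572150, minus strand), the A-type cyclin of S phase and G2, had 321, 293 and 303 CPM in Cdk8 knockout, 327, 319.9 and 280.4 CPM in Cdk19 knockout, 323, 324 and 184 CPM in RasG12V and 386, 389 and 302 CPM in untransformed cells. All transformed libraries other than RasG12V replicate 3 lay between 280.4 and 327 CPM, below untransformed replicates 1 and 2 but level with replicate 3. With all libraries its adjusted p was 0.396 in Cdk8 knockout, 0.420 in Cdk19 knockout and 0.160 in RasG12V against untransformed cells. Once both replicates 3 were left out it fell in each: by 0.35 (SE 0.07, adjusted p = 2.71e-04) in Cdk8 knockout, by 0.33 (SE 0.07, adjusted p = 4.19e-04) in Cdk19 knockout and by 0.28 (SE 0.07, adjusted p = 0.00560) in RasG12V cells on the log2 scale. With only 1 of these replicates left out it passed in none of them.

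Cdk1, the kinase at the centre of mitotic entry, had 485, 469 and 420.4 CPM in Cdk8 knockout, 433, 431 and 375 CPM in Cdk19 knockout, 462, 457 and 254 CPM in RasG12V and 463, 496 and 391 CPM in untransformed cells. Its groups overlapped in every comparison with all libraries, and its fold change in RasG12V against untransformed cells was -0.20 on the log2 scale with an approximate 95% interval of -0.60 to 0.20. In Cdk19 knockout against untransformed cells it fell without both replicates 3 (log2 fold change -0.23, SE 0.07, adjusted p = 0.0174). Cdc25c, the phosphatase that removes inhibitory phosphates from Cdk1, had 47.7, 42.8 and 42.9 CPM in Cdk8 knockout, 49.0, 47.1 and 41.1 CPM in Cdk19 knockout, 45.1, 48.1 and 33.7 CPM in RasG12V and 39.4, 42.6 and 39.0 CPM in untransformed cells. Its Cdk8 knockout libraries all lay just above the untransformed ones, and the other groups overlapped with these; no comparison passed.

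Ccnf (cyclin F), a ubiquitin ligase receptor despite its name, had 93.2, 78.9 and 78.7 CPM in Cdk8 knockout, 98.5, 89.6 and 82.2 CPM in Cdk19 knockout, 79.5, 83.3 and 46.2 CPM in RasG12V and 79.2, 76.9 and 71.6 CPM in untransformed cells. Each Cdk19 knockout library was above each untransformed library, with log2 fold change 0.25, SE 0.17, adjusted p = 0.338. The B-type cyclins did not pass with all libraries. Ccnb2 rose in Cdk8 knockout against untransformed cells without both replicates 3 (log2 fold change 0.26, SE 0.07, adjusted p = 0.00638); untransformed replicate 3, at 117 CPM, is the highest of all 12 libraries for it. Ccnb1 had log2 fold changes of 0.15, 0.03 and -0.08 in Cdk8 knockout, Cdk19 knockout and RasG12V against untransformed cells. Counts of both B-type cyclins are uncertain, since each has a named pseudogene copy and reads mapping to several places were not counted. Cks2, a small Cdk1-binding subunit, was the least abundant of the 35, with 62 to 119 counts per library.

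Foxm1, the transcription factor that activates many of these genes, had 111, 97.4 and 112 CPM in Cdk8 knockout, 102, 103 and 96.4 CPM in Cdk19 knockout, 99.0, 108 and 57.0 CPM in RasG12V and 114, 105 and 97.7 CPM in untransformed cells. RasG12V replicate 3 was at 55.2% of its group's other replicates, near the median of 56.9% for the list, and the other 11 libraries overlapped between groups. Its fold change was 0.02, -0.07 and -0.26 on the log2 scale in Cdk8 knockout, Cdk19 knockout and RasG12V against untransformed cells, and none passed in either setting.

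Of the mitotic kinases, Aurka, the Aurora kinase of centrosomes and spindle poles, had 182, 183 and 157 CPM in Cdk8 knockout, 182, 171 and 148 CPM in Cdk19 knockout, 185, 185 and 79.2 CPM in RasG12V and 150.3, 172 and 113 CPM in untransformed cells. Untransformed replicate 3 was low as well as RasG12V replicate 3, and the groups overlapped. Its interval was among the wider ones, -0.51 to 0.60 on the log2 scale in RasG12V against untransformed cells. Plk1, the Polo kinase, had a log2 fold change of 0.17 in Cdk8 knockout, 0.11 in Cdk19 knockout and -0.06 in RasG12V against untransformed cells. Neither kinase passed with all libraries or without both replicates 3.

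Aurkb held the only call with all libraries. Aurkb (ENSMUSG00000020897, chr11:69045647-69051664, plus strand), the catalytic kinase of the chromosomal passenger complex, had 87.6, 81.8 and 85.1 CPM in Cdk8 knockout, 83.8, 89.1 and 80.5 CPM in Cdk19 knockout, 80.6, 81.3 and 53.3 CPM in RasG12V and 97.6, 95.1 and 88.8 CPM in untransformed cells. Each RasG12V library was below each untransformed library, and it fell in RasG12V against untransformed cells (log2 fold change -0.39, SE 0.13, adjusted p = 0.0486). The call was lost when any 1 of the 9 untransformed or knockout libraries was left out and kept when any 1 RasG12V library was; over these 12 fits the log2 fold change ran from -0.47 to -0.20 and the adjusted p from 0.0370 to 0.118. Without both replicates 3 it fell by 0.27 in RasG12V (SE 0.07, adjusted p = 0.00456), by 0.19 in Cdk8 knockout (SE 0.06, adjusted p = 0.0172) and by 0.20 in Cdk19 knockout cells (SE 0.06, adjusted p = 0.0146). Birc5 (survivin), which tethers the complex to chromatin, had 224, 204 and 196 CPM in Cdk8 knockout, 197, 201 and 183 CPM in Cdk19 knockout, 198, 203 and 109.8 CPM in RasG12V and 200.2, 206 and 168 CPM in untransformed cells. The groups overlapped, and no comparison passed for it or for Cdca8 (borealin) in either setting.

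Among the spindle checkpoint genes, Bub1 and Mad2l1 moved in opposite directions when both replicates 3 were left out. Bub1 (ENSMUSG00000027379, chr2:127801122-127831865, minus strand), a checkpoint kinase of the kinetochore, had 246, 239 and 247 CPM in Cdk8 knockout, 228, 238 and 205 CPM in Cdk19 knockout, 238, 244 and 138 CPM in RasG12V and 173, 189 and 175 CPM in untransformed cells. All transformed libraries but RasG12V replicate 3 lay above all untransformed ones. With all libraries its adjusted p was 0.0703 in Cdk8 knockout (0.44, SE 0.17), 0.184 in Cdk19 knockout and 0.420 in RasG12V against untransformed cells; DESeq2 called the first. It rose without both replicates 3 in Cdk8 knockout (log2 fold change 0.42, SE 0.07, adjusted p = 5.05e-05), in Cdk19 knockout (log2 fold change 0.30, SE 0.07, adjusted p = 0.00145) and in RasG12V cells (log2 fold change 0.40, SE 0.07, adjusted p = 2.36e-04).

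Mad2l1 (ENSMUSG00000029910, chr6:66535390-66547220, plus strand) encodes Mad2, the checkpoint protein that binds Cdc20 and so restrains the anaphase-promoting complex. It had 147, 139 and 129.9 CPM in Cdk8 knockout, 142, 142 and 120.1 CPM in Cdk19 knockout, 140.2, 142 and 78.1 CPM in RasG12V and 165, 172 and 143 CPM in untransformed cells. Each RasG12V and each Cdk19 knockout library was below each untransformed library, while Cdk8 knockout replicate 1 overlapped with untransformed replicate 3. With all libraries no comparison passed, and the smallest adjusted p was 0.124 in RasG12V against untransformed cells. When both replicates 3 were left out it fell in Cdk8 knockout (log2 fold change -0.29, SE 0.07, adjusted p = 0.00342), in Cdk19 knockout (log2 fold change -0.33, SE 0.07, adjusted p = 0.00121) and in RasG12V cells (log2 fold change -0.27, SE 0.08, adjusted p = 0.0119).

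Bub1b, which encodes the checkpoint protein BubR1, had 152, 147 and 140.0 CPM in Cdk8 knockout, 155, 151 and 136 CPM in Cdk19 knockout, 136, 145 and 94.7 CPM in RasG12V and 122, 128 and 140.4 CPM in untransformed cells. Untransformed replicate 3 overlapped with the transformed libraries and the other untransformed libraries did not overlap with the knockouts. It passed only without both replicates 3, where it rose in Cdk8 knockout (log2 fold change 0.21, SE 0.07, adjusted p = 0.0151) and Cdk19 knockout cells (log2 fold change 0.23, SE 0.07, adjusted p = 0.0100) against untransformed cells. Bub3, the adaptor that brings Bub1 and BubR1 to kinetochores, had 220.4, 231 and 229 CPM in Cdk8 knockout, 227, 213 and 209 CPM in Cdk19 knockout, 193, 209.7 and 191 CPM in RasG12V and 218, 217 and 202 CPM in untransformed cells. RasG12V replicate 3 was again the lowest library but stood only just below replicate 1, and the Cdk8 knockout was above RasG12V in every library at an adjusted p of 0.746. Ttk (Mps1), the kinase upstream of the checkpoint, had log2 fold changes of 0.09, 0.11 and -0.01 against untransformed cells in Cdk8 knockout, Cdk19 knockout and RasG12V cells.

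**Figure D5:**
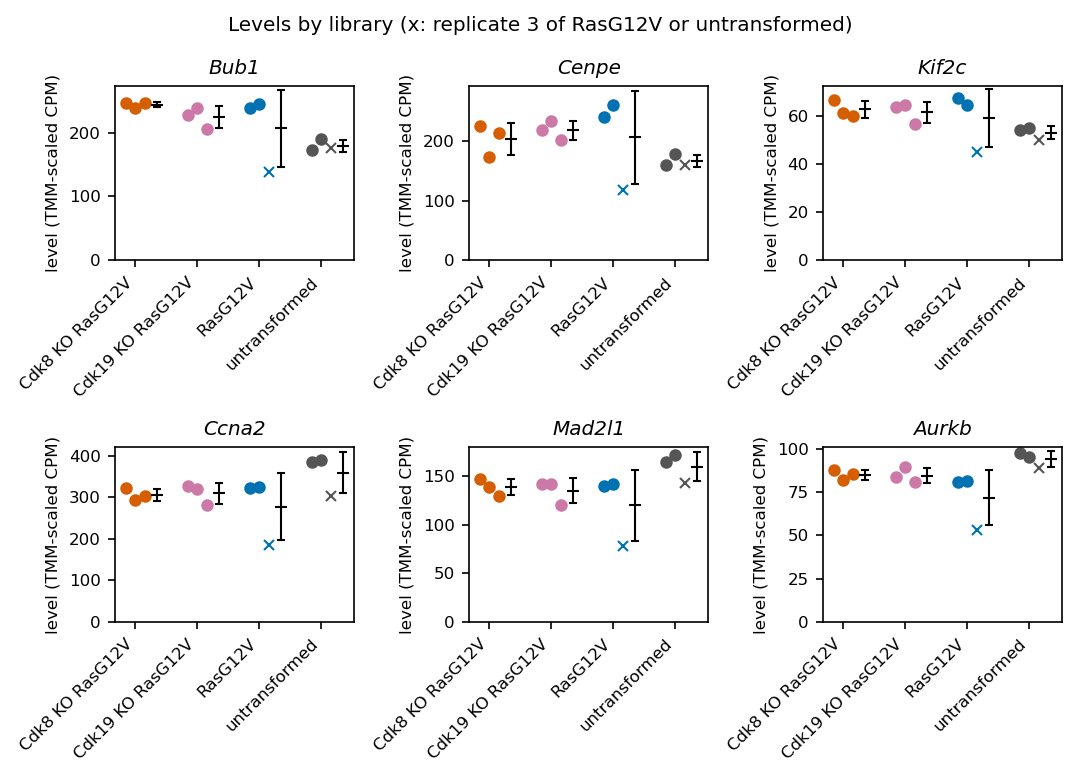
CPM by library in the 4 groups for Bub1, Cenpe, Kif2c, Ccna2, Mad2l1 and Aurkb; points are libraries, crosses the replicates 3 of RasG12V and untransformed cells, and bars the mean and SD of 3. In the upper row the transformed libraries other than RasG12V replicate 3 lie mostly above the untransformed ones, with 1 Cdk8 knockout library of Cenpe inside their range, and in the lower row mostly below them.

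Of the kinetochore genes, Cenpe (ENSMUSG00000045328, chr3:135212537-135273611, plus strand), a kinesin that carries chromosomes to the spindle equator, had 226, 174 and 213 CPM in Cdk8 knockout, 219.6, 234 and 201 CPM in Cdk19 knockout, 241, 261 and 118 CPM in RasG12V and 161, 178 and 160.0 CPM in untransformed cells. Cdk19 knockout libraries were all above untransformed ones, whereas Cdk8 knockout replicate 2 fell within the untransformed range. No comparison passed with all libraries. When both replicates 3 were left out it rose in Cdk8 knockout (log2 fold change 0.26, SE 0.10, adjusted p = 0.0442), in Cdk19 knockout (log2 fold change 0.35, SE 0.10, adjusted p = 0.00787) and in RasG12V cells (log2 fold change 0.55, SE 0.11, adjusted p = 6.43e-04), the last being the largest fold change among the 35 genes in that comparison. Ndc80, the microtubule-binding subunit of the outer kinetochore, and Cenpf, a large kinetochore protein, did not pass in either setting.

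Among the kinesin motors, Kif11 (Eg5), which pushes spindle poles apart, had 187, 168 and 179.6 CPM in Cdk8 knockout, 194, 193 and 168 CPM in Cdk19 knockout, 191, 189 and 100.0 CPM in RasG12V and 199, 225 and 197 CPM in untransformed cells. Every transformed library lay at or below 194 CPM and every untransformed library at or above 197 CPM. No share of all genes separated in this way is given. With all libraries the adjusted p of Kif11 was 0.446, 0.571 and 0.178 in Cdk8 knockout, Cdk19 knockout and RasG12V against untransformed cells. It fell without both replicates 3 in Cdk8 knockout (log2 fold change -0.26, SE 0.07, adjusted p = 0.00623) and Cdk19 knockout cells (log2 fold change -0.21, SE 0.07, adjusted p = 0.0262), and in RasG12V cells it did not pass (log2 fold change -0.18, SE 0.08, adjusted p = 0.0889).

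Kif2c (MCAK), a kinesin that depolymerises microtubules at centromeres, had 66.8, 61.1 and 60.1 CPM in Cdk8 knockout, 63.7, 64.5 and 56.6 CPM in Cdk19 knockout, 67.3, 64.7 and 45.2 CPM in RasG12V and 54.3, 54.9 and 49.9 CPM in untransformed cells. Both knockouts lay above the untransformed libraries throughout, and RasG12V did so in replicates 1 and 2. It rose without both replicates 3 in Cdk8 knockout (log2 fold change 0.19, SE 0.07, adjusted p = 0.0439) and RasG12V cells (log2 fold change 0.26, SE 0.08, adjusted p = 0.0138), with 0.0766 as adjusted p in Cdk19 knockout cells. Kif20a, a motor of the spindle midzone, had 359, 324 and 345 CPM in Cdk8 knockout, 328, 307 and 288 CPM in Cdk19 knockout, 314, 323 and 212 CPM in RasG12V and 313, 309.8 and 261 CPM in untransformed cells. All Cdk8 knockout libraries were above all RasG12V and all untransformed ones, at adjusted p values of 0.837 and 0.290. Kif23, another midzone motor needed for cytokinesis, did not pass in either setting.

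Tpx2, a spindle assembly factor that activates Aurora A, had the highest CPM of the spindle and midzone proteins: 347, 306 and 309 CPM in Cdk8 knockout, 315, 329.7 and 299 CPM in Cdk19 knockout, 339.9, 337 and 201 CPM in RasG12V and 278, 296 and 259 CPM in untransformed cells. The knockout libraries were all above the untransformed ones, and RasG12V replicates 1 and 2 were too. In RasG12V against untransformed cells it rose once both replicates 3 were left out (log2 fold change 0.22, SE 0.07, adjusted p = 0.0201). Nusap1, a microtubule-binding protein of the spindle, rose there as well (log2 fold change 0.26, SE 0.09, adjusted p = 0.0192), and Prc1, which bundles midzone microtubules, fell in Cdk19 knockout against untransformed cells (log2 fold change -0.27, SE 0.07, adjusted p = 0.00529). For Nusap1 untransformed replicate 3 was the highest library of its group and for Prc1 the lowest, so both calls depend on leaving that library out with RasG12V replicate 3. Aspm and Hmmr, which act at spindle poles, did not pass with all libraries or without both replicates 3. Hmmr rose in RasG12V against untransformed cells with RasG12V replicate 3 alone left out, as given above.

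Top2a, the topoisomerase that untangles sister chromatids, was the most abundant of the 35 both in CPM and per kilobase of exon: 1341, 1136 and 1269 CPM in Cdk8 knockout, 1321, 1352 and 1193 CPM in Cdk19 knockout, 1421, 1454 and 806 CPM in RasG12V and 1073, 1180.4 and 1037 CPM in untransformed cells. RasG12V replicates 1 and 2 were the highest of the 12 libraries and replicate 3 the lowest. In RasG12V against untransformed cells without both replicates 3 it rose (log2 fold change 0.34, SE 0.08, adjusted p = 0.00286), while the adjusted p was 0.155 in Cdk8 knockout and 0.0556 in Cdk19 knockout cells. Mki67, the chromosome surface protein Ki-67 widely used to mark dividing cells, was lowest in RasG12V replicate 3 relative to its group (40.5%) and did not pass in either setting.

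Of the genes for ubiquitin ligation, Ube2c, the conjugating enzyme of the anaphase-promoting complex, had 167, 136 and 131 CPM in Cdk8 knockout, 116, 124 and 151 CPM in Cdk19 knockout, 158, 115 and 93.1 CPM in RasG12V and 111, 123 and 141 CPM in untransformed cells. Libraries of a group differed from each other as much as the groups did, and no comparison passed. Cdca3, an F-box-like protein linked to mitotic entry, had 143, 124 and 116 CPM in Cdk8 knockout, 114, 124 and 119 CPM in Cdk19 knockout, 123, 118 and 76.4 CPM in RasG12V and 133, 137 and 122 CPM in untransformed cells. It passed only without both replicates 3, in Cdk19 knockout against untransformed cells (log2 fold change -0.19, SE 0.07, adjusted p = 0.0448). Cdc20, the activator of the anaphase-promoting complex that the checkpoint restrains, had log2 fold changes of 0.12, 0.03 and -0.12 in Cdk8 knockout, Cdk19 knockout and RasG12V against untransformed cells.

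Per kilobase of exon, and as a mean over all 12 libraries, Top2a stood highest at 135 RPKM, followed by Cdk1 at 86.8, Ccna2 at 76.6 and Kif20a at 70.8 RPKM. Aspm at 5.12 and Cks2 at 4.17 RPKM were the lowest. Within the passenger complex Birc5 stood highest, above Aurkb at 28.4 RPKM, and Cdca8 lowest. Within the checkpoint Bub1 was the highest at 49.0 RPKM, above Bub1b at 32.1, Bub3 at 30.4, Ttk at 17.3 and Mad2l1 at 16.5 RPKM. The length used covers all annotated exons of a gene, 8390 bases for Mad2l1 and 7006 for Bub3, so these ranks depend on the annotation. In mean CPM, Bub1 and Bub3 both stood at 213.

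A wider list of 107 other mitosis genes (condensins, cohesin, kinetochore, anaphase-promoting complex, centrosome, cytokinesis and DREAM genes) was examined beside them. With all libraries 4 rose and 5 fell in RasG12V against untransformed cells, 3 rose and 4 fell in Cdk8 knockout and 4 rose and 4 fell in Cdk19 knockout cells. These are 8.41%, 6.54% and 7.48% of the list, against 23.4%, 24.4% and 25.3% of all genes. With all libraries none passed between knockouts and RasG12V or between the knockouts. Without both replicates 3, between the knockouts, 1 cohesin or separase gene was higher and 1 lower in Cdk8 knockout cells. There 1 kinetochore gene was higher too, and 5.32% of all genes passed. In RasG12V replicate 3, 96 of the 107 were below both other RasG12V libraries, with a median log2 ratio of -0.68 to their mean, against -0.81 for the 35 genes. All 13 DNA replication genes listed (among them Mcm5, Pcna and Cdt1) were below as well, with a median of -0.90. Of all genes tested, 43.7% lay below both other RasG12V libraries. With both replicates 3 left out, 18 of the 107 rose and 14 fell in RasG12V against untransformed cells, 29.9% against 40.0% of all genes. In each knockout against untransformed cells more of the 107 fell than rose in that setting. Of the 13 replication genes, 5 fell with all libraries in RasG12V against untransformed cells and 11 fell without both replicates 3, while none rose. Of all genes, 23.4% and 40.0% passed in either direction in these settings.

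Of the wider list, Pttg1, Zwint and Tfdp2 passed in all 3 comparisons with untransformed cells and were not low in RasG12V replicate 3. Pttg1 (securin), the inhibitor of separase, had 115, 119.9 and 109 CPM in Cdk8 knockout, 98.4, 88.4 and 98.1 CPM in Cdk19 knockout, 102, 101 and 105 CPM in RasG12V and 62.3, 65.0 and 72.9 CPM in untransformed cells. It rose in Cdk8 knockout (log2 fold change 0.78, SE 0.08, adjusted p = 2.12e-05), in Cdk19 knockout (log2 fold change 0.51, SE 0.08, adjusted p = 4.65e-04) and in RasG12V against untransformed cells (log2 fold change 0.62, SE 0.08, adjusted p = 1.14e-04). RasG12V replicate 3 was thus the highest of its group.

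Zwint, an outer kinetochore protein, rose by a log2 fold change of 0.44 in Cdk8 knockout, 0.38 in Cdk19 knockout and 0.43 in RasG12V against untransformed cells (adjusted p = 7.35e-04, 0.00170 and 8.37e-04). Tfdp2, a dimerisation partner of E2F factors, fell in the same comparisons, with log2 fold changes of -0.59, -0.68 and -0.71 (adjusted p = 2.37e-04, 7.49e-05 and 6.21e-05). Pkmyt1, a kinase that inhibits Cdk1, fell too, with log2 fold changes of -0.61, -0.65 and -0.91 (adjusted p = 0.00522, 0.00345 and 3.89e-04). RasG12V replicate 3 stood at 105% of the mean of replicates 1 and 2 for Zwint, 99.8% for Tfdp2 and 70.7% for Pkmyt1.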

How the data were processed

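Gene counts were deposited by the authors as 1 table for each library, whose columns hold unstranded, forward and reverse reads for every Ensembl gene. Per the submitters' processing notes, reads were checked with FastQC and aligned with STAR 2.6.0a to GRCm38.p6; which annotation release was counted is not given in the sources used here. RNA, per the labels, was depleted of ribosomal RNA and prepared with a TruSeq RNA kit. Reverse-strand counts (column 4) were used, since they held 24.7 to 28.9 times the forward reads. Reads outside genes, ambiguous reads (0.963% to 1.04%) and reads mapping to several places (23.0% to 26.3%) stayed out of library sizes, which leaves genes with near-identical copies uncertain. On the same strand, exons of Ccnf, Foxm1 and Top2a overlap other annotated genes, where reads count for neither. Of 54146 identifiers, 54079 matched GENCODE M21, which gave symbols, coordinates and exon lengths.

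All 12 libraries entered 1 fit of all 14283 genes that passed filterByExpr, with TMM scaling, in edgeR 4.0.16 (glmQLFit with robust estimation, glmQLFTest; R 4.3.3), with Benjamini-Hochberg adjustment over all genes and a threshold of 0.05. The SE is the absolute log2 fold change over the square root of F, and the approximate 95% interval uses the t quantile at the fitted degrees of freedom. Without both replicates 3, RasG12V and untransformed cells have 2 libraries each and 14493 genes were tested. The fit was tested on simulated counts. RPKM are CPM per kilobase of exon, with the length covered by all annotated exons of a gene. Alternatives were RLE scaling, no filter (at least 1 count), DESeq2 1.42.0, unstranded counts, a replicate block, only the 2 groups compared, without both replicates 3, and without each library in turn.

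The 35 genes, the other lists and the alternatives were chosen with earlier results of these data known. Values per library are given for the 14 genes with the smallest adjusted p in any comparison and for the gene of highest CPM in each role. Other values are given where a call or a comparison needs them. Of the other mitosis genes, up to 6 per comparison could be named, by adjusted p. Intervals cover the spread between these libraries only. Figures were drawn with matplotlib 3.10.9.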

Additional observations from a re-analysis of the deposited data

How the results depend on the processing

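The number of the 35 genes called in RasG12V against untransformed cells was 1 with all libraries. It was 2 with a replicate block (Aurkb and Mad2l1), 0 when only the 2 groups compared were fitted and 9 without both replicates 3. Leaving out 1 library gave between 0 and 9, with 9 without RasG12V replicate 3 and 0 without any 1 of the untransformed or knockout libraries. In Cdk8 knockout against untransformed cells the count was 0 with all libraries, 1 with DESeq2, with no filter and with a replicate block (Bub1 each time), 3 with only the 2 groups compared, 9 without both replicates 3, and between 0 and 5 with 1 library left out (5 without RasG12V replicate 3, 1 without RasG12V replicate 2). In Cdk19 knockout against untransformed cells it was 0, then 2 with only the 2 groups compared, 10 without both replicates 3, and between 0 and 7 with 1 library left out (7 without RasG12V replicate 3). RasG12V replicate 3 is in neither group of these knockout comparisons and enters them only through the fit shared by all libraries. For Bub1 in Cdk8 knockout against untransformed cells the log2 fold change was 0.44 (SE 0.17) with all libraries. Without both replicates 3 it was 0.42 (SE 0.07). Which part of the shared fit changed the counts was not tested. Against RasG12V cells, and between the knockouts, the count was 0 in all alternatives run. RLE scaling and unstranded counts changed no count. Shares of all genes are given above only for all libraries, without both replicates 3 and without RasG12V replicate 3. Counts under the other settings have no such share beside them and are not read as particular to mitosis genes.

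Fold changes near 0 changed sign under some settings. For Nusap1 in RasG12V against untransformed cells the log2 value of 0.01 was -0.014 with a replicate block and ran from -0.093 to 0.19 with 1 library left out. Tpx2 in that comparison ran from -0.035 (without RasG12V replicate 1) to 0.30 (without RasG12V replicate 3). Prc1 in Cdk19 knockout against untransformed cells ran from -0.26 (without untransformed replicate 3) to 0.0069 (without untransformed replicate 2). Correlations of same-numbered libraries after removing group means lay between -0.17 and 0.28. In no pair of groups were all 3 above 0.1. Differently numbered libraries were not correlated for comparison, so whether replicate number marks a shared effect was not tested. Cks2, with 62 to 119 counts a library, was the least abundant and had the widest approximate intervals with all libraries.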
